A study of Mus musculus with 36 samples.

Results

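The Dlk1-Meg3 domain is an imprinted cluster on the distal part of mouse chromosome 12. Its genes were followed here through 9 populations of embryonic kidney progenitors. They are the listed members of the cluster: the paternally expressed, protein-coding Dlk1, Rtl1 and Dio3, and the maternally expressed, non-coding Meg3, Rian and Mirg. Of these 6 genes, 5 had a row in the expression table of 22761 genes. Rtl1 (GRCm38 chromosome 12, 109589193 to 109600330, minus strand) was not analysed here.

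The study made kidney organoids from ureteric bud (UB), nephron progenitors (NP) and stromal progenitors (SP), taken from mouse embryos (called ex-fetu) or differentiated from mouse embryonic stem cells (mESC). It sequenced the mRNA of the sorted cells, 4 libraries for each of 9 groups and 36 in all, to compare the mESC-derived cells with their embryonic equivalents. The ex-fetu groups were E11.5 NP, E11.5 SP, E11.5 UB, E12.5 NP, E12.5 SP and E12.5 UB from CD1 mice, each library pooling the kidneys of all embryos of a mouse. The mESC-derived groups were iNP and iSP from E14 mESC and the engineered ureteric bud, eUB, from a Sox9-mCherry mESC line, each library pooling the embryoid bodies of a differentiation batch. The labels and the methods of the sort and of the sequencing name Sox9-mCherry, whereas the legend on sort purity names SOX8-mCherry and the line whose making is described is Sox8-mCherry, and which is right is not known. In GEO's labels the eUB libraries are called iUB. The labels give no treatment, deletion or sex for any group. NP and iNP were sorted as ITGA8 high and PDGFRA low, SP and iSP as ITGA8 low and PDGFRA high, both after removal of CD31-positive and of EpCAM- or RET-positive cells. UB was sorted as RET+/EpCAM+ and eUB as EpCAM+/mCherry+. Embryonic and mESC-derived cells thus differed in strain as well as in source, and eUB in its parental line from iNP and iSP, and these cannot be told apart. The titles give the embryonic ages used here, and the column headers of the expression values give the same ages. For the UB libraries another label gives the opposite age (E12.5 as the source of those titled E11.5 and the reverse), so every result that uses ex-fetu UB (between the ages, against eUB, against the mesenchyme and in the interaction terms) holds for the libraries as titled.

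In an imprinted cluster a gene is read mainly or only from the chromosome of a given parent. Here a differentially methylated region between Dlk1 and Meg3 sets the pattern: it is methylated on the paternal chromosome, where Dlk1, Rtl1 and Dio3 are active, and unmethylated on the maternal chromosome, where a long stretch of non-coding RNA from Meg3 through Rian to Mirg is made. DLK1 is a transmembrane protein with EGF-like repeats, related to the Notch ligands, that holds progenitors such as preadipocytes back from differentiation. DIO3 is the deiodinase that inactivates thyroid hormone. RTL1 derives from a retrotransposon and is needed in placenta and muscle. Meg3 is a long non-coding RNA, Rian carries small nucleolar RNAs, and Mirg carries a large group of microRNAs. In cultured pluripotent mouse cells the maternal RNAs of the cluster are known to become silenced in some lines. The libraries hold no allele information, so the values are sums over both chromosomes.

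The cluster is also a source of many microRNAs, which are shown first because they are the products that the host RNAs Rian and Mirg lead to. RefSeq lists 58 hairpins and 114 mature sequences (113 distinct) between Begain and Ppp2r5c, the genes that flank the interval, in the mouse build GRCm38.p6. Of the hairpins, 14 lie in Mirg, 3 in Rian, 1 in Meg3, 6 antisense to Rtl1, 1 in Rtl1 on its own strand, and 33 between these genes. The mature sequences hold 104 distinct seeds (bases 2 to 8), of which 9 are shared by 2 sequences each. The expression table had rows for 5 of the hairpins in Mirg. Their mature sequences are printed 5′ to 3′ with the seed in capitals, and the first pair shares its seed.
mmu-miR-453: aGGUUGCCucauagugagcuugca
mmu-miR-496a-5p: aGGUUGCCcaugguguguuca
mmu-miR-496a-3p: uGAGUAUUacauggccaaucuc
mmu-miR-154-5p: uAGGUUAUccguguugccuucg
mmu-miR-154-3p: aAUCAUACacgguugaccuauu
mmu-miR-541-5p: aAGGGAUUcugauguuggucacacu
mmu-miR-541-3p: uGGCGAACacagaauccauacu
mmu-miR-3072-5p: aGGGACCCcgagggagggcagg
mmu-miR-3072-3p: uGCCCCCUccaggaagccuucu

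The next set lies opposite Rtl1. These microRNAs are read from the strand opposite to that of Rtl1, and maternal microRNAs of this kind are known to act on the paternal Rtl1 RNA. Capitals again mark the seed.
mmu-miR-431-5p: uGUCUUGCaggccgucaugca
mmu-miR-433-3p: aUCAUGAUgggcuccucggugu
mmu-miR-127-3p: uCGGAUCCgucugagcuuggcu
mmu-miR-434-3p: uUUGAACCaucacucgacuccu
mmu-miR-136-5p: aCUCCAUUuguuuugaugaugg

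The promoters of the leading gene of each parental set are shown because Dlk1 and Meg3 are compared throughout. Each is the 250 bases before the RefSeq start on the plus strand of GRCm38.p6, and capitals mark matches to the TATA motif (TATAAA), to the cyclic AMP response motif (TGACGTCA), to the GC box (GGGCGG) or to the CCAAT box, searched on both strands. The Meg3 promoter is chr12:109540746-109540995, and the Dlk1 promoter is chr12:109452573-109452822.
Meg3: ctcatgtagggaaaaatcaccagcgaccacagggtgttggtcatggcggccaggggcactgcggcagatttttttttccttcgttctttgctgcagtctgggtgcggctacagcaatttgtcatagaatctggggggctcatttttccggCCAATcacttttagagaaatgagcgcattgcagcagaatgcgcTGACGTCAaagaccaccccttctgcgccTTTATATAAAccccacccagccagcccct
Dlk1: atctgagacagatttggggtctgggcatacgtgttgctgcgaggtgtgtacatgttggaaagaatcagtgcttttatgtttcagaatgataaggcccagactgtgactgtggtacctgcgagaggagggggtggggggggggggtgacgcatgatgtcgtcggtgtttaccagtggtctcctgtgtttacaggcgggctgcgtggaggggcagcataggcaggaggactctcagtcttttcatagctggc
In the Meg3 promoter, TATAAA began 25 bases before the start on the plus strand and overlapped a second match on the minus strand, TGACGTCA began 57 bases before and CCAAT 100 bases before. These letters were found in 12.37% (TATAAA), 1.546% (TGACGTCA) and 33.85% (CCAAT) of the 32851 promoter windows in the RefSeq table. None of the 4 motifs was found in the Dlk1 window, including GGGCGG, which 32.74% of windows held. The Meg3 window had 10 CpG and the Dlk1 window 8, beside a median of 6 over all windows.

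Each labelled cell type carried its defining markers. UB markers (Ret, Epcam, Gata3, Wnt11, Krt8, Cdh1 and Hoxb7) summed to 1729 to 3240 normalised CPM (counts per 1e+06 reads) in the 12 UB and eUB libraries and to at most 299 elsewhere, SP markers were highest in the SP and iSP libraries, and NP markers in the NP and iNP libraries. The libraries held 13.0 to 52.5 M gene reads (M, 1e+06), so that 3 reads were worth 0.0605 to 0.223 normalised CPM. In all, 3 libraries stood apart in a way that touches the domain. E12.5 UB replicate 1 had an SP marker sum of 964 against 194 to 215 in the other 3 libraries of its group, with fewer UB marker reads (1729 against 2707 to 2846). Its pluripotency marker sum (6 genes) was also high, at 26.5 normalised CPM, where the other ex-fetu libraries had 0.226 to 1.28, eUB 2.45 to 3.48, iNP 4.55 to 7.67 and iSP 5.47 to 8.50. The eUB replicate 1 was the shallowest library, and in E12.5 NP replicate 2 Meg3 had only 4 reads of 41.7 M. In bulk samples such as these, fewer cells of a type and less RNA per cell cannot be told apart.

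Per length of exon, Dlk1 had the highest mean level of the domain genes in 8 of 9 groups, and in eUB it was Rian that did (1.32 normalised CPM per kb, against 0.289 for Dlk1). In E11.5 NP the order of the means rested on replicate 1 (Dlk1 14.3 and Dio3 8.06 per kb). Dio3 was above Dlk1 in replicates 2 (11.1 and 9.84), 3 (13.1 and 10.8) and 4 (6.72 and 5.74). In E12.5 UB the order of the means also rested on replicate 1 (Dlk1 2.97 and Rian 1.2 per kb). Dlk1 was above Rian in replicate 3 (1.01 and 0.842), level with it in replicate 4 (0.888 and 0.885) and below it in replicate 2 (0.402 and 0.753). Exon lengths (the union of all annotated exons) were 5657 bases for Dlk1 (chromosome 12, 109452823 to 109463336), 18089 for Meg3 (109541001 to 109571726), 18234 for Rian (109603940 to 109661716), 7292 for Mirg (109729764 to 109749460) and 2030 for Dio3 (110279068 to 110281097), all on the plus strand of GRCm38. In the E11.5 NP libraries the ratio of Dlk1 to Dio3 per kb of exon had a median of 0.870, so that the first and the last member of the domain stood at near equal levels per length. That ratio was 3.13 in E11.5 SP, 10.6 in iNP and 87.4 in iSP. Rian exceeded Meg3 per kb in all 9 groups by the median of its libraries, by a factor of 2.12 in E11.5 UB at the least and 7.76 in iSP at the most. The ratio of Dlk1 to Rian per kb was 5.45 in E11.5 NP, 3.25 in E12.5 NP and 0.217 in eUB.

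**Figure D1:**
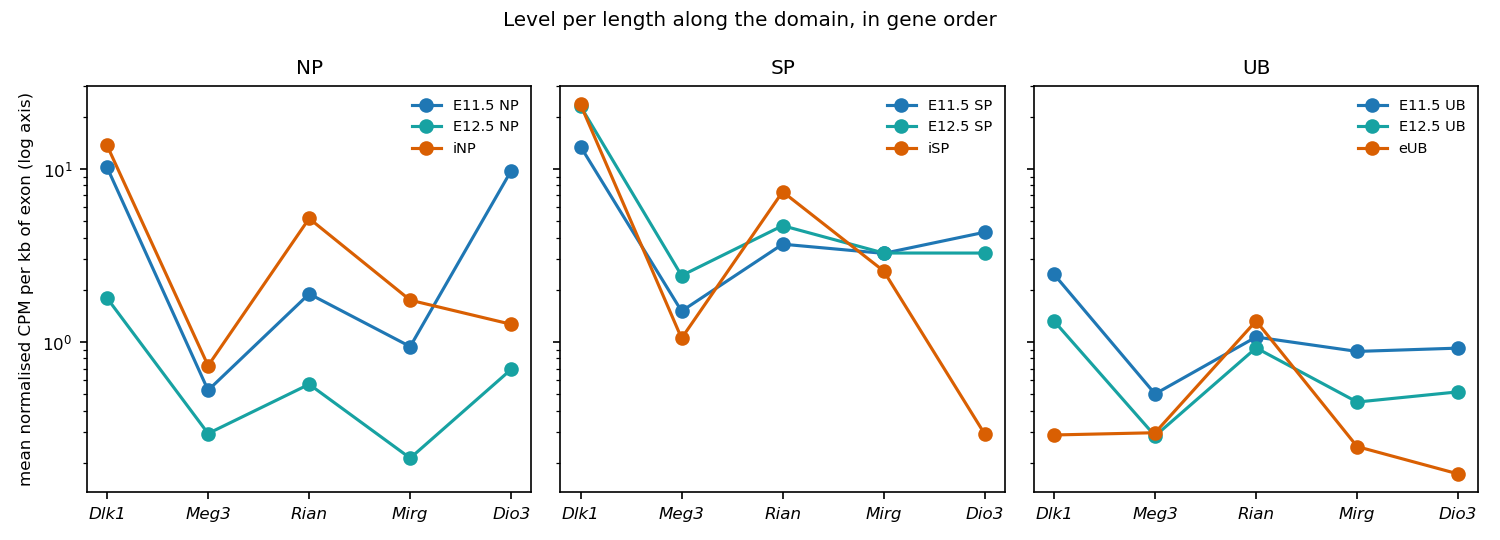
Mean level of each domain gene per kb of exon (normalised CPM per kb, log axis), with the genes in chromosomal order along the x axis and a line for each group. Dio3 lies near Dlk1 in E11.5 NP and far below it in iSP and iNP.

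Dlk1 had the widest range of the members, with its highest values in stromal progenitors and its lowest in eUB. Its highest group mean (133 ± 15.7, SD, n = 4, in iSP) was 81.3-fold its lowest (1.64 ± 0.174 in eUB). It stood at 80.9, 55.7, 61.3 and 32.4 normalised CPM in the E11.5 NP libraries and at 97.3, 70.1, 68.1 and 68.4 in E11.5 SP. A day later the NP libraries read 13.2, 8.21, 9.51 and 9.47, and the SP libraries 93.8, 125, 140 and 161. The NP and SP values thus overlapped at E11.5 and lay far apart at E12.5, with the NP values down and the SP values up. In iNP the values were 70.8, 86.8, 80.9 and 69.5, and in iSP 132, 143, 146 and 111. The E11.5 UB libraries read 13.1, 15.8, 8.01 and 18.6, the E12.5 UB libraries 16.8, 2.27, 5.71 and 5.02, and the eUB libraries 1.63, 1.88, 1.5 and 1.52. All 4 eUB libraries were below every other library of the series. Ordered by group mean (iSP, E12.5 SP, iNP, E11.5 SP, E11.5 NP, E11.5 UB, E12.5 NP, E12.5 UB, eUB), 5 of the 8 neighbouring pairs overlapped in range, and gaps lay below E12.5 SP, below E11.5 NP and below E12.5 UB.

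Dio3, the thyroid hormone deiodinase at the far end of the domain, had another pattern. It was highest in E11.5 NP (16.4, 22.5, 26.6 and 13.6 normalised CPM), above E11.5 SP (7.37, 6.56, 10.1 and 10.8), which in turn was above E11.5 UB (1.81, 2.57, 0.869 and 2.20). At E12.5 the order of NP and SP was the opposite, with NP at 1.79, 0.956, 1.49 and 1.39 and SP at 2.93, 7.42, 7.03 and 9.04. In E12.5 UB it stood at 2.29, 0.284, 0.914 and 0.676. The mESC-derived cells were low in every library, with iNP at 1.90, 3.21, 2.87 and 2.25, iSP at 0.773, 0.609, 0.554 and 0.439, and eUB at 0.0743 (1 read), 0.390, 0.472 and 0.460. All 8 iSP and eUB libraries were below all 8 ex-fetu SP libraries, and no mESC-derived library reached the lowest of the E11.5 NP or SP libraries. The span of group means was 56.6-fold, from E11.5 NP to eUB, and among neighbouring groups only E11.5 NP and E11.5 SP did not overlap.

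Among the maternally expressed RNAs, Meg3, the first of the long transcript, had a wide spread within groups and no neighbouring pair of groups without overlap. It read 18.3, 7.69, 5.88 and 6.02 normalised CPM in E11.5 NP, 36.4, 47.8, 15.1 and 9.34 in E11.5 SP, and 9.24, 9.85, 6.53 and 10.5 in E11.5 UB. At E12.5 it read 14.1, 0.0981, 4.71 and 2.42 in NP, 85.6, 9.07, 48.6 and 31.1 in SP, and 5.65, 5.07, 5.44 and 4.49 in UB. The values were 10.9, 14.4, 16.1 and 11.2 in iNP, 11.1, 27.9, 23.3 and 13.4 in iSP, and 0.743, 4.26, 9.15 and 7.40 in eUB. Meg3 was read in all 36 libraries. Of the mESC-derived libraries eUB replicate 1 (0.743) was the lowest, and among ex-fetu libraries E12.5 NP replicate 2 alone was below it. E12.5 SP had the highest mean (43.6 ± 32.3) and E12.5 UB the lowest (5.16 ± 0.508), an 8.45-fold span.

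Rian, which carries the small nucleolar RNAs, was highest in the mESC-derived mesenchyme. It ran from 106 to 156 normalised CPM in iSP and from 88.2 to 101 in iNP, without overlap between these groups. The ex-fetu ranges were 60.9 to 106 in E12.5 SP, 47.8 to 86.0 in E11.5 SP, 23.2 to 51.8 in E11.5 NP and 5.93 to 15.8 in E12.5 NP. In the bud lineage Rian stood at 16.8 to 20.9 in E11.5 UB, 13.7 to 21.9 in E12.5 UB and 15.1 to 30.3 in eUB. Unlike those of Dlk1, its eUB values overlapped those of the ex-fetu buds.

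Mirg, the microRNA host at the end of the maternal transcript, ran from 11.7 to 35.0 normalised CPM in E11.5 SP, 11.3 to 31.8 in E12.5 SP, 13.2 to 22.3 in iSP and 11 to 14.4 in iNP. It ran from 4.24 to 12.7 in E11.5 NP and from 0.441 to 3.26 in E12.5 NP. In the bud lineage it stood at 4.38 to 7.96 in E11.5 UB, 2.51 to 3.93 in E12.5 UB and 0.965 to 2.75 in eUB. The ranges of E12.5 NP, E12.5 UB and eUB overlapped at the low end, and those of E11.5 UB and E12.5 UB did not overlap.

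**Figure D2:**
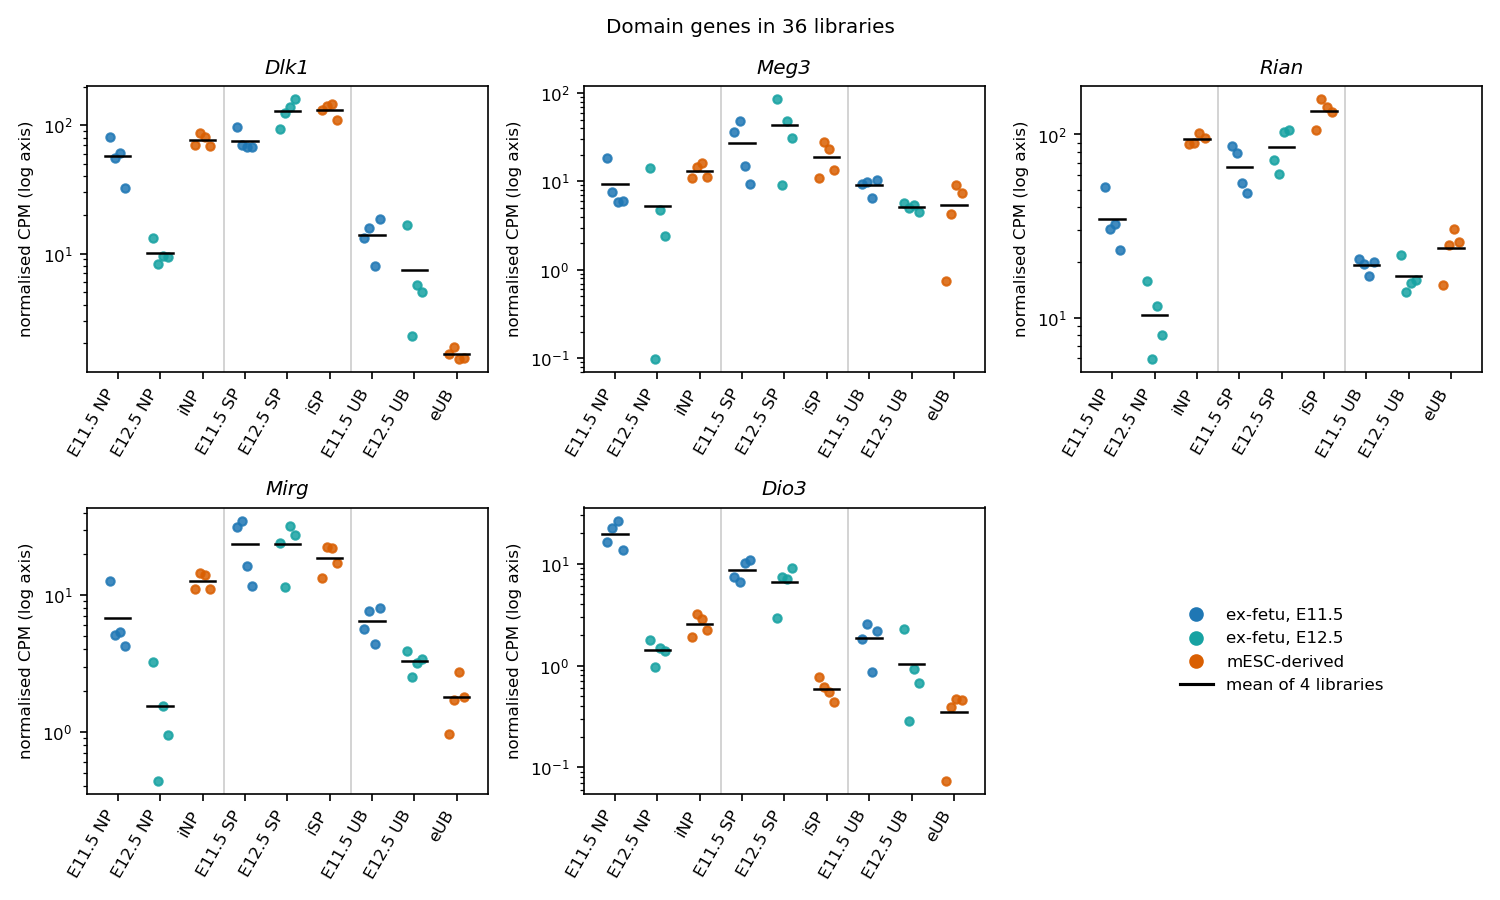
Normalised CPM (log axis) of the 5 domain genes in each library, with a point for each of the 4 libraries of a group and a bar at their mean. Dlk1 is lowest in eUB (1.5 to 1.88), Dio3 is highest in E11.5 NP (13.6 to 26.6), and the 4 points of Meg3 in E12.5 NP and E12.5 SP lie far apart.

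The comparison of E12.5 with E11.5 asks what changed in the embryo over a day. In nephron progenitors 4 of the 5 members were lower at E12.5, whereas 6.34% of the 13414 genes tested changed in either direction and 3.59% were lower. Each difference is on the log2(value + 1) scale, which understates the change of low genes, with its standard error (SE) and limma's adjusted p (Benjamini-Hochberg over all genes tested, called under 0.05). Dio3 fell 14.1-fold by the group means (log2 difference -3.08, SE 0.21, adjusted p = 0.00032), the lowest log2 difference of all genes tested. Dlk1 fell 5.70-fold (-2.35, SE 0.26, adjusted p = 0.0022). Rian fell 3.33-fold (-1.67, SE 0.30, adjusted p = 0.017) and Mirg 4.41-fold (-1.63, SE 0.37, adjusted p = 0.036). For these 4 genes no E12.5 NP library reached the lowest E11.5 NP library. Meg3 had a difference of -1.16 (SE 0.69, adjusted p = 0.34) with overlapping ranges, and -0.51 without E12.5 NP replicate 2 (adjusted p = 0.56) or -1.77 without replicate 1 (0.06). The calls for Dlk1 and Dio3 held under all 17 alternative settings and left-out libraries (highest adjusted p 0.016 and 0.0046). That for Rian was lost without E11.5 NP replicate 2 or 3 or E12.5 NP replicate 4 (adjusted p = 0.061, 0.067 and 0.062). That for Mirg was lost in 10 of 17, among them edgeR (0.065) and all left-out libraries but E12.5 NP replicate 1 (0.052 to 0.11). Mirg and Dio3 passed the filter on low values (at least 1 normalised CPM in at least 4 libraries) through E11.5 NP, where they are high. Mirg was under 1 in E12.5 NP replicates 2 and 4, and Dio3 in replicate 2. With no filter the limma adjusted p was 0.058 for Mirg, no longer a call, and 0.0014 for Dio3. The SP marker sum was 530 to 580 normalised CPM in E11.5 NP and 515 to 704 in E12.5 NP, and of the 7 NP markers tested 1 was higher and none lower at E12.5.

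In stromal progenitors 1 of 5 members changed, beside 8.52% of 13633 genes in either direction and 3.73% higher. Dlk1 was 1.71-fold higher at E12.5 (log2 difference 0.75, SE 0.19, limma adjusted p = 0.035), although the ranges overlapped and the call was lost under 9 of 16 alternatives, among them the omission of replicate 2, 3 or 4 of either group (adjusted p = 0.058 to 0.12). Meg3 (0.55, SE 0.67), Rian (0.36, SE 0.24), Mirg (0.04, SE 0.39) and Dio3 (-0.41, SE 0.29) did not pass, with adjusted p from 0.41 to 0.96. Among markers of other cells, 5 of 7 UB markers were lower in E12.5 SP (sums of 86.5 to 123 normalised CPM against 128 to 299), as were 3 of 7 NP markers, with 1 higher. The neural marker sum was 4.60 to 5.83 against 11.3 to 17.6, and the endothelial sum 13.8 to 22.2 against 14.5 to 43.1. None of 5 erythroid markers passed, with sums of 252 to 2453 against 57.8 to 1236. The part of these in the result was not tested. In the ureteric bud 2 of 5 members were lower in the libraries titled E12.5, beside 26.5% of 13772 genes in either direction and 12.3% lower. These were Meg3 (-0.69, SE 0.15, adjusted p = 0.0099), lower in all 4 E12.5 libraries than in any of E11.5, and Mirg (-0.78, SE 0.19, adjusted p = 0.015), likewise without overlap. Both calls were lost with all 36 libraries in a single fit (0.48 and 0.10). Dlk1 did not pass (-1.04, SE 0.46, adjusted p = 0.12). Without E12.5 UB replicate 1, whose SP marker sum stood apart, Dlk1 passed as well (-1.49, adjusted p = 0.00075), as did Rian (-0.34, adjusted p = 0.015).

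**Figure D3:**
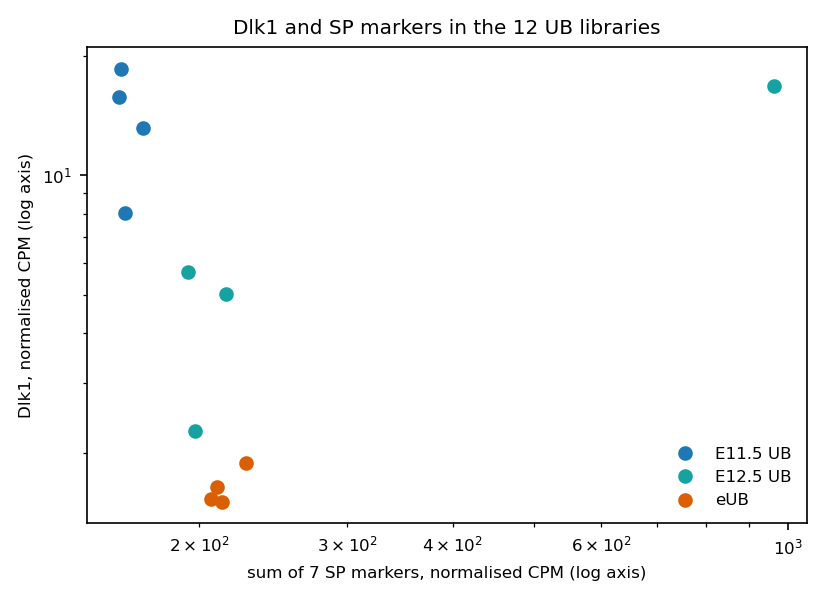
Dlk1 (normalised CPM, log axis) against the summed level of 7 SP markers (normalised CPM, log axis) in the 12 UB and eUB libraries, with a point for each library. E12.5 UB replicate 1, at a marker sum of 964 and a Dlk1 level of 16.8, stands apart from the other 11 libraries, and the 4 eUB libraries are lowest in Dlk1 at marker sums of 207 to 227.

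The cell types of the embryo were compared within each age. At E11.5, 3 of 5 members separated NP from SP, 1 higher and 2 lower, beside 43.1% of 13655 genes, 21% higher and 22.2% lower. Dio3 was 2.27-fold higher in NP (log2 difference 1.08, SE 0.22, limma adjusted p = 0.0036), while Rian (-0.95, SE 0.26, adjusted p = 0.014) and Mirg (-1.63, SE 0.39, adjusted p = 0.0074) were lower. Dlk1 (-0.45, SE 0.25, adjusted p = 0.17) and Meg3 (-1.31, SE 0.51, adjusted p = 0.062) did not pass, but Meg3 did without E11.5 NP replicate 1 (-1.65, adjusted p = 0.027) or E11.5 SP replicate 4 (-1.70, adjusted p = 0.011). At E12.5 all 5 members were lower in NP than in SP, beside 34.8% of 13772 genes in either direction and 17.8% lower. The differences were -3.55 for Dlk1 (SE 0.20, 12.8-fold), -3.31 for Mirg (SE 0.38, 15.3-fold), -3.02 for Meg3 (SE 0.83, 8.18-fold), -2.97 for Rian (SE 0.29, 8.25-fold) and -1.59 for Dio3 (SE 0.28, 4.70-fold), with adjusted p from 1.4e-06 for Dlk1 to 0.019 for Meg3. Meg3 alone had overlapping ranges there, and its call was lost with edgeR (adjusted p = 0.053), without E12.5 NP replicate 4 (0.051) and without E12.5 SP replicate 3 (0.059). Meg3, Mirg and Dio3 passed the filter on low values at E12.5 through the SP libraries, where they are high. With no filter their limma adjusted p was 0.029, 0.00029 and 0.0036. Erythroid markers were lower in NP than in SP at both ages, 4 of 4 tested at E11.5 (sums of 9.47 to 56.3 against 57.8 to 1236) and 5 of 5 at E12.5 (2.92 to 62.9 against 252 to 2453), and 5 of 7 UB markers were lower in E11.5 NP. Their part in the differences was not tested. Dio3, then, was higher in NP than in SP at E11.5 and lower at E12.5, and the difference between the ages was not itself tested.

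Set against the mean of NP and SP, UB had 4 of 5 members lower at E11.5 (beside 56.4% of 14500 genes, 29.5% lower) and 4 of 5 lower at E12.5 (beside 40.3% of 14543, 19.4% lower). At E11.5 the largest differences were those of Dio3 (-2.32, SE 0.21, limma adjusted p = 3.6e-07) and Dlk1 (-2.19, SE 0.23, adjusted p = 2e-06), followed by Rian (-1.22, SE 0.19) and Mirg (-0.82, SE 0.30). At E12.5 they were Dlk1 (-2.43, SE 0.34), Dio3 (-1.11, SE 0.27), Mirg (-0.80, SE 0.30) and Rian (-0.78, SE 0.23). At both ages Dio3 passed the filter on low values through the NP and SP libraries, where its means were higher. It was under 1 in E11.5 UB replicate 3 (0.869) and in every E12.5 UB library but replicate 1. Its place in both counts thus rests on the mesenchyme, and with no filter its limma adjusted p was 7.1e-07 and 0.0081. The mean of NP and SP covers unlike values. At E11.5 Mirg was 6.41 normalised CPM in UB, 6.83 in NP and 23.6 in SP, and its UB and NP ranges overlapped. By group means at E12.5 Rian was 16.8 normalised CPM in UB, 10.3 in NP and 85.4 in SP, and Mirg was 3.27, 1.55 and 23.7, so for these RNAs UB lay below SP but not below NP. Meg3 was 5.16 in UB and 5.33 in NP, and the Dlk1 and Dio3 ranges of UB and NP overlapped. UB was not tested against NP or SP alone. The Mirg call was lost at E11.5 without UB replicate 1 or 3 or SP replicate 1 or 2 (adjusted p up to 0.12). At E12.5 it was lost under 14 of 21 alternatives (up to 0.20), among them edgeR (0.14) and the omission of any UB library (0.056 to 0.14). The Rian call at E12.5 was lost without UB replicate 2, 3 or 4 (0.052 to 0.069). Meg3 did not pass at either age (-0.59 and -0.97, adjusted p = 0.21 and 0.25), but passed at E11.5 without SP replicate 4 (-0.79, adjusted p = 0.043). The macrophage marker sum was 36.6 to 85.2 in the ex-fetu UB libraries and at most 1.85 in all others, and its part in these differences was not tested. In the mESC-derived cells all 5 members were lower in eUB (beside 62.9% of 14733 genes, 32.6% lower), and Dlk1 by the most, at -5.27 (SE 0.09, adjusted p = 9.8e-14), which is 64.2-fold by the means. Mirg stood at -2.57 (SE 0.18), Rian at -2.21 (SE 0.15), Meg3 at -1.61 (SE 0.40) and Dio3 at -0.82 (SE 0.12), although the Dio3 range of eUB overlapped that of iSP and lay below that of iNP only. Dio3 passed the filter on low values there through the iNP libraries, so its call, which also stands without the filter (5.7e-05), rests on iNP, and 4 members were lower apart from it. Since eUB came from another mESC line, cell type and line cannot be told apart. Between iNP and iSP, which share a line, 3 of 5 members passed, beside 30.7% of 14052 genes, 16.5% higher and 14.2% lower. Dlk1 (-0.78, SE 0.11, adjusted p = 0.00059) and Rian (-0.50, SE 0.12, adjusted p = 0.011) were lower in iNP, and Dio3 was higher (1.15, SE 0.14, adjusted p = 0.00019), having passed the filter through iNP alone (without the filter, adjusted p = 0.00022). With all 36 libraries in a single fit the calls for Dlk1 (0.053) and Rian (0.13) were lost, and Rian was also lost with the GC and length trends removed (0.24). Mirg just missed the threshold (-0.51, SE 0.17, adjusted p = 0.051) and passed with edgeR (0.038), after quantile normalisation (0.039), and without iNP replicate 2 (0.015) or iSP replicate 1 (0.011).

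The main comparison of the study set the mESC-derived cells against their ex-fetu equivalents. Among nephron progenitors, 3 of 5 members differed between iNP and E11.5 NP, 2 higher and 1 lower, beside 64.7% of 14064 genes, 35.5% higher and 29.2% lower, so a call by itself is common there. Dio3 was 7.73-fold lower in iNP (log2 difference -2.52, SE 0.21, limma adjusted p = 6.4e-06). Rian was 2.73-fold higher (1.48, SE 0.20, adjusted p = 0.00014) and Mirg 1.85-fold higher (0.90, SE 0.27, adjusted p = 0.015, but 0.098 after quantile normalisation). Dlk1 (0.48, SE 0.23, adjusted p = 0.095) and Meg3 (0.56, SE 0.31, adjusted p = 0.13) did not pass, but both did without E11.5 NP replicate 1 (0.66 and 0.90, adjusted p = 0.024 and 0.0018). Dlk1 also passed with upper-quartile scaling (0.66, adjusted p = 0.029) and quantile normalisation (0.63, adjusted p = 0.033), and Meg3 with the GC and length trends removed (0.93, adjusted p = 0.043). Against E12.5 NP all 5 members were higher in iNP, beside 44.3% of 14067 genes in either direction and 25.6% higher. Rian was 9.08-fold higher (3.14, SE 0.25), Mirg 8.18-fold (2.53, SE 0.29), Dlk1 7.62-fold (2.83, SE 0.16), Meg3 2.47-fold (1.72, SE 0.63) and Dio3 1.82-fold (0.56, SE 0.16). Meg3 passed only narrowly (adjusted p = 0.049) and was lost under 13 of 17 alternatives, among them every left-out library but E12.5 NP replicate 1 (0.069 to 0.11). Its difference was 1.1 without E12.5 NP replicate 2 (0.073). Dio3 (adjusted p = 0.018) was lost under 4, among them quantile normalisation (0.35) and the omission of iNP replicate 3 (0.062). Meg3, Mirg and Dio3 passed the filter on low values there through the iNP libraries, where their means are higher. With no filter their limma adjusted p was 0.067, 0.00022 and 0.03. Measured on Dlk1, Rian and Mirg, iNP thus stood closer to E11.5 NP than to E12.5 NP, and measured on Dio3 closer to E12.5 NP. The iNP libraries also carried more of several other cell types' markers than E11.5 NP. Their SP marker sum was 802 to 1193 against 530 to 580, their endothelial sum 44.6 to 76.0 against 9.30 to 29.1, their neural sum 47.2 to 68.3 against 23.8 to 28.5 and their skeletal muscle sum 32.2 to 38.2 against 0.470 to 3.0. NP markers summed to 554 to 864 against 1424 to 1560, with 6 of 7 lower. The UB marker sum of iNP was 105 to 133 against 36.3 to 64.1, while its erythroid sum was lower (at most 0.146 against 9.47 to 56.3). In E12.5 NP the sums were 515 to 704 (SP), 35.5 to 95.6 (UB), 7.08 to 26.8 (endothelial) and 11.7 to 24.7 (neural). They were 0.147 to 0.646 (skeletal muscle), 2.92 to 62.9 (erythroid) and 1265 to 2174 (NP) there. The part of these in the differences was not tested.

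Among stromal progenitors, 3 of 5 members differed between iSP and E11.5 SP, beside 67.6% of 13916 genes, 35.5% higher and 32.1% lower. Dio3 was 14.7-fold lower in iSP (-2.59, SE 0.16, limma adjusted p = 1.1e-06), Rian 2.01-fold higher (1.02, SE 0.20, adjusted p = 0.0012) and Dlk1 higher too (0.81, SE 0.14, adjusted p = 0.00052), each without overlap. Meg3 (-0.33, SE 0.49) and Mirg (-0.22, SE 0.33) did not pass (adjusted p = 0.57 and 0.56). Against E12.5 SP 2 of 5 passed, beside 62.1% of 13903 genes, 33.3% higher and 28.8% lower. Dio3 was 11.1-fold lower (-2.18, SE 0.26, adjusted p = 8e-05) and Rian 1.57-fold higher (0.67, SE 0.19, adjusted p = 0.012), while the Dlk1 values of both groups overlapped (0.05, SE 0.16, adjusted p = 0.79). Meg3 (-0.88, SE 0.58, adjusted p = 0.21) and Mirg (-0.27, SE 0.30, adjusted p = 0.45) did not pass, but both were lower in iSP without E12.5 SP replicate 2 (-1.47 and -0.57, adjusted p = 0.011 and 0.028). The calls for Dio3, for Rian and, against E11.5 SP, for Dlk1 held under every alternative that could be fitted. In both comparisons Dio3 passed the filter through the ex-fetu libraries, where it is high, since all 4 iSP values were under 1 (13 to 17 reads). With no filter its adjusted p was 2.6e-06 against E11.5 SP and 0.00016 against E12.5 SP. Dio3 fell under the filter in some fits with a library left out, which lowers the count of members called against E12.5 SP to 1 without E12.5 SP replicate 1, 3 or 4. SP markers summed to 5081 to 5333 in iSP and to 4899 to 7315 in E11.5 SP. Erythroid markers stood at 57.8 to 1236 in E11.5 SP and at most 0.0483 in iSP. Endothelial markers were higher in iSP, 3 of 5 against E11.5 SP and 4 of 5 against E12.5 SP (sums of 33.5 to 53.9 against 14.5 to 43.1 and 13.8 to 22.2). Both skeletal muscle markers tested and all 3 pluripotency markers tested were higher against either age. Of 7 UB markers 4 were lower and 1 higher against E11.5 SP, and 2 lower and 4 higher against E12.5 SP. The part of these markers in the differences was not tested.

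In the ureteric bud, 2 of the 4 members tested were lower in eUB than in E11.5 UB, beside 60.5% of 13956 genes, 28.5% lower. Dlk1 was lower by 2.44 on the log2 scale (-2.44, SE 0.21, limma adjusted p = 7.6e-06) and Mirg by 1.41 (-1.41, SE 0.22, adjusted p = 0.00038), both without overlap and under every alternative. Meg3 (-0.91, SE 0.47, adjusted p = 0.12) and Rian (0.26, SE 0.18, adjusted p = 0.25) did not pass. Without eUB replicate 1, the shallowest library, Rian passed as higher (0.46, adjusted p = 0.00094), and the difference of Meg3 was -0.37 (adjusted p = 0.12). Meg3 passed without eUB replicate 3 (-1.22, adjusted p = 0.044), after quantile normalisation (0.047) and with the GC and length trends removed (0.027). Dio3 was under the filter on low values in this comparison. Its 4 eUB values lay below its 4 E11.5 UB values, with p = 0.0286 by the exact two-sided permutation test over the 70 splits, the smallest this design can give. Against E12.5 UB, Dlk1 (-1.40, SE 0.43, adjusted p = 0.026) and Mirg (-0.63, SE 0.20, adjusted p = 0.033) were again lower, beside 44.4% of 13872 genes, 21.2% lower, but the call for Dlk1 was lost without E12.5 UB replicate 3 or eUB replicate 2, 3 or 4 (adjusted p = 0.052 to 0.060), and that for Mirg under 11 of 17 alternatives (up to 0.12). Without E12.5 UB replicate 1 Dlk1 differed by -0.95 (adjusted p = 0.01). Rian (0.47, adjusted p = 0.11) passed as higher in eUB without E12.5 UB replicate 1 (0.60, adjusted p = 0.042) or eUB replicate 1 (0.67, adjusted p = 0.0084). Meg3 stood at -0.22 (adjusted p = 0.74) and without eUB replicate 1 at 0.32 (0.26). For Dio3 against E12.5 UB the exact permutation p was 0.114. Mirg passed the filter through the ex-fetu UB libraries, since eUB replicate 1 was under 1 (0.965). With no filter its limma adjusted p was 0.00076 against E11.5 UB and 0.055 against E12.5 UB. All 5 macrophage markers were also lower in eUB than in E11.5 UB and E12.5 UB (medians -3.72 and -3.32), with sums of 0.223 to 0.558 normalised CPM in eUB against 49.1 to 85.2 and 36.6 to 68.3, and C1qa at 0 in eUB. The endothelial sum was 0.965 to 1.98 in eUB against 5.05 to 14.1 and 2.94 to 89.4. The erythroid sum was at most 0.0859 in eUB against 5.07 to 43.7 and 4.62 to 70.5. The part of these markers in the differences was not tested.

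**Figure D4:**
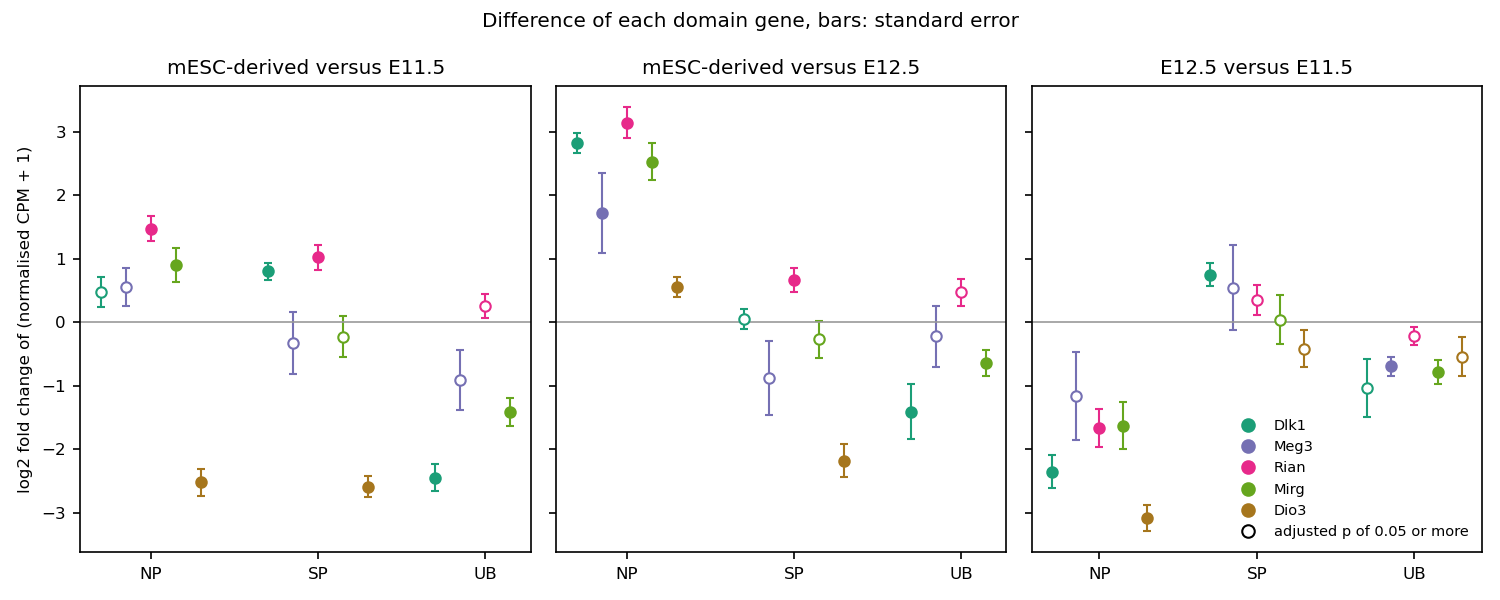
Log2 difference of each domain gene with its standard error (bars) in nephron progenitors, stromal progenitors and ureteric bud, for mESC-derived cells against E11.5 and against E12.5 and for E12.5 against E11.5. Open points did not pass limma's adjusted p. Dio3 is low in mESC-derived NP and SP beside E11.5 (-2.52 and -2.59), and Dlk1 is low in eUB (-2.44) but not in iNP or iSP.

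Whether these differences themselves differ between cell types was tested with interaction terms. Between NP and SP none of the 5 members passed (beside 29.3% of 14846 genes), and none with edgeR. At an unadjusted p under 0.05 the count was 1, for Mirg (difference 1.13, SE 0.46, limma adjusted p = 0.075). Mirg passed without E11.5 NP replicate 1 (1.43, adjusted p = 0.013) or without E11.5 SP replicate 4 (1.40, adjusted p = 0.017). Between UB and NP 4 of 5 passed (beside 47.1% of 15155 genes, 22.3% higher and 24.9% lower): the change against E11.5 was more negative in the bud for Dlk1 (-2.92, SE 0.34, adjusted p = 2.6e-06), Mirg (-2.31, SE 0.37) and Rian (-1.22, SE 0.29), and less negative for Dio3 (1.46, SE 0.31). Meg3 (-1.46, adjusted p = 0.058) passed without E11.5 NP replicate 1 (0.018), eUB replicate 3 (0.022) or eUB replicate 4 (0.038), and was -0.93 without eUB replicate 1 (0.072). Between UB and SP the same 4 genes passed (beside 47.4% of 15163 genes, 24.2% higher and 23.3% lower), Dlk1 with -3.25 (SE 0.26, adjusted p = 6.8e-08). There the calls for Rian (-0.77, SE 0.29, adjusted p = 0.038) and Mirg (-1.19, SE 0.42, adjusted p = 0.03) were lost under 13 and 8 of 25 alternatives (up to 0.076 and 0.062), among them, for both genes, the omission of E11.5 SP replicate 3 or 4, E11.5 UB replicate 2 or 4, iSP replicate 2 or 3 or eUB replicate 1, and for Rian also of E11.5 UB replicate 1 or iSP replicate 4. Both sets of differences share the UB libraries. Dio3 passed the filter there through the mesenchymal libraries, where it is high, and not through the bud, so its calls are no support for a change in the bud. The term for Dio3 between UB and NP depends on the scale: with a pseudocount of 0.1 in place of 1 it was 0.71 (adjusted p = 0.30), and with edgeR 0.67 (adjusted p = 0.31).

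Over the 36 libraries the maternally expressed RNAs varied together. The correlations given here are descriptions, and their points share groups, depth scaling and, for NP and SP of an age, possibly the same kidneys. On log2(value + 1), Pearson's r was 0.90 between Meg3 and Mirg, 0.89 between Rian and Mirg, and 0.77 between Meg3 and Rian, and after subtracting each group's mean it was 0.88, 0.91 and 0.82. Dlk1 correlated with Mirg over all libraries (0.87) and less within groups (0.49). Within groups r was 0.72 between Dlk1 and Dio3, the other paternally expressed gene measured, and -0.05 between Meg3 and Dio3. It was also 0.58 between Dlk1 and the maternally expressed Rian, and 0.31 between Rian and Dio3. E12.5 UB replicate 1, which stood apart in its SP markers, was high within its group in both Dlk1 (16.8 normalised CPM against 2.27 to 5.71) and Dio3 (2.29 against 0.284 to 0.914). The part of this library in the r of 0.72 was not tested. The maternal RNAs also moved, within groups, with technical properties of the libraries and with other long non-coding RNAs. For Meg3 the within-group r was 0.75 with the slope of each library's values on GC content, 0.82 with Neat1, 0.83 with Kcnq1ot1 and 0.72 with Malat1, where that of Dlk1 with the GC slope was 0.24. For Mirg it was 0.74 with the GC slope, 0.59 with Neat1 and 0.68 with Kcnq1ot1, and for Rian 0.52, 0.56 and 0.68. The part of these properties in the spread of the maternal RNAs, or in their varying together, was not tested. The fit with the trend on GC content and length removed from each library, an alternative chosen after seeing the data, gave Meg3 in E11.5 NP against SP as -1.10 (adjusted p = 0.032).

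**Figure D5:**
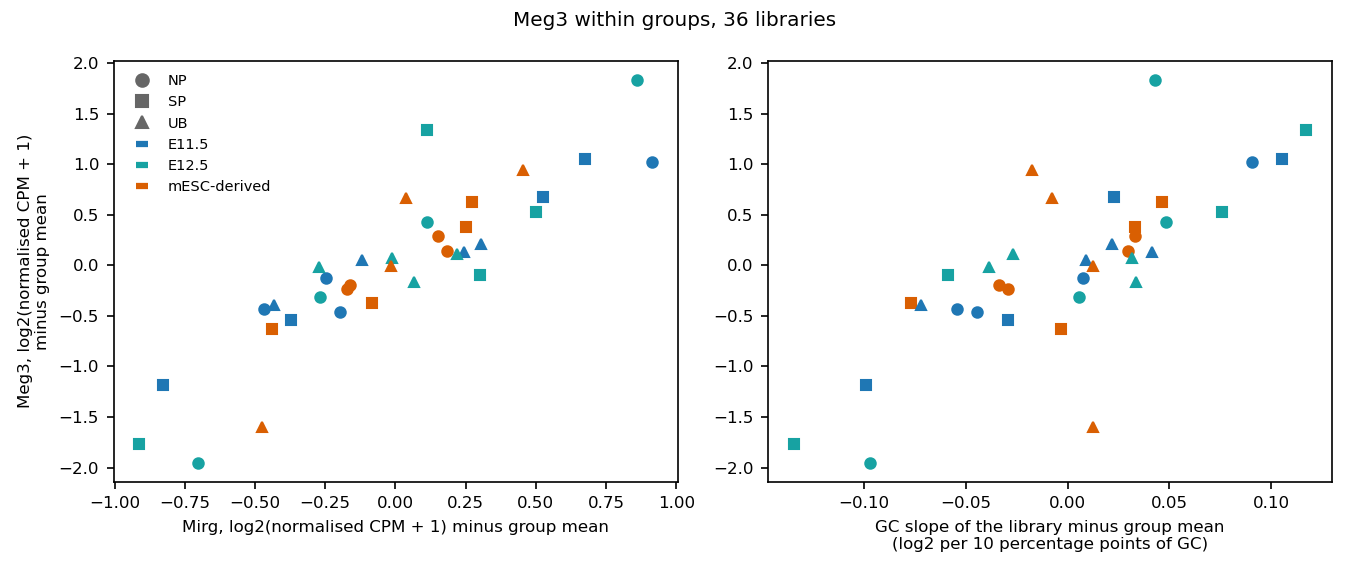
Meg3 in the 36 libraries as the deviation of log2(normalised CPM + 1) from its group mean, plotted against the same deviation of Mirg and against the deviation of each library's GC slope (log2 units per 10 percentage points of GC). Points stand for libraries, shapes for cell types and colours for sources. Meg3 rises with both measures within groups (r = 0.88 and 0.75).

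Among the 16000 genes that reached 1 normalised CPM in 4 or more libraries, those whose values over the 36 libraries were most like Meg3 were Phf1 (r = 0.90), Mirg (0.90), Kcp (0.86), Zfp948 (0.84) and Zfp57 (0.84), a zinc finger protein that keeps methylation at imprinted regions. Those most like Dlk1 were Heg1 (0.94), Tbkbp1 (0.93), Col26a1 (0.92), Prrx2 (0.92), a homeobox gene of mesenchyme, and Hoxa2 (0.91). Neither list holds another paternally expressed gene of the domain. Within groups the r with Meg3 was 0.94 for Phf1, 0.88 for Mirg, 0.92 for Kcp, 0.68 for Zfp948 and 0.91 for Zfp57. Meg3 also varied within groups with library properties, as given above, and their part in this ranking was not tested.

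The other genes with rows between Begain and Ppp2r5c were near the floor. Of 124 annotated genes there, 12 had rows, and the 7 that were not members had 39 to 161 reads each over all 36 libraries and at most 18 in any library. They were Gm26906 (111 reads), which lies antisense to the end of Meg3, B830012L14Rik (161), and the hairpins of Mir453 (101), Mir154 (39), Mir496a (58), Mir541 (58) and Mir3072 (86), all within Mirg and on its strand. Each had its highest read count in E11.5 SP replicate 2 or E12.5 SP replicate 2. No comparison could test any of them under the filter, and reads of the hairpins and of Mirg, or of Gm26906 and Meg3 where counting ignored strand, cannot be told apart. The mature microRNAs printed above are not captured by an mRNA library and were not measured.

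The genes just outside the domain gave a background for it. Of 18 genes on either side of it, 3 were higher and 8 lower in iNP than in E11.5 NP, 4 higher and 9 lower in iSP than in E11.5 SP, and 2 higher and 9 lower in eUB than in E11.5 UB, with medians of -0.30, -0.33 and -0.50 beside 0.07, 0.04 and 0.02 over all genes tested. Over all genes 64.7%, 67.6% and 60.5% were called in these comparisons, so the counts of neighbours called in either direction lie near the background. By direction, 29.2%, 32.1% and 28.5% of all genes were lower, smaller shares than among these 18, and that difference was not tested. Hsp90aa1, the inducible cytosolic chaperone, was lower in all 3 (-1.44, -2.0 and -0.68 in iNP, iSP and eUB), as were the mitochondrial carrier Slc25a29 (-1.06, -0.90 and -2.05) and the signalling adaptor Traf3 (-1.85, -1.15 and -0.91). Between E12.5 NP and E11.5 NP, where 4 domain genes were lower, 1 of the 18 was lower and none higher, with a median of -0.06, and that count is near the 3.59% of all genes that were lower.

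The pathways of the 2 protein-coding members were described in the same way, and their counts stand beside the same shares of all genes called (64.7% in iNP, 67.6% in iSP and 60.5% in eUB) and are not a result about the lists. Of the Notch pathway and Dlk1 partners, 8 of 17 tested genes were higher and 6 lower in iNP than in E11.5 NP, 4 of 16 higher and 9 lower in iSP, and 3 of 14 higher and 6 lower in eUB, with medians of 0.42, -0.93 and -0.36. The Notch target Heyl (-1.27, -2.02 and -1.24), the coactivator Maml1 (-1.39, -1.06 and -0.63) and the adipogenic factor Cebpb (-0.53, -1.30 and -1.01) were lower in all 3. Of the genes that handle thyroid hormone, 2 of 9 tested were higher and 4 lower in iNP, 2 of 10 higher and 4 lower in iSP, and 1 of 10 higher and 5 lower in eUB, with medians of -0.31, -0.21 and -0.36. The thyroid hormone target Klf9 (-1.12, -3.42 and -1.53) and the transporter of amino acids and thyroid hormone Slc7a5 (-1.14, -2.0 and -2.12) were lower in all 3. Of genes that control imprints, 2 of 17 tested were higher and 7 lower in iNP, 4 higher and 2 lower in iSP, and 5 higher and 2 lower in eUB, with medians of -0.35, -0.02 and 0.13, and none passed in all 3 in the same direction. Zfp57 was 13.6 ± 0.640 normalised CPM in E11.5 NP and higher in iNP (log2 difference 1.33, SE 0.10, limma adjusted p = 4.3e-06). It did not pass in iSP (58.8 ± 13.1 against 47.7 ± 15.8 in E11.5 SP, log2 difference 0.33, adjusted p = 0.25) or eUB (30.2 ± 12.2 against 25.2 ± 3.76 in E11.5 UB, 0.16, adjusted p = 0.65). Between E12.5 NP and E11.5 NP none of the 17 passed, beside 6.34% of all genes.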

How the data were processed

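Sorted kidney progenitors were profiled with a stranded mRNA kit on a NovaSeq. Per the labels and the study's methods, the authors trimmed reads with Cutadapt, aligned them with STAR to a build named as GRCh38, although the table holds mouse gene identifiers, and filtered and normalised counts with edgeR. The counting program and its use of strand are not given in the sources used here. The deposited signal values are CPM scaled by the authors' normalisation factors. At a tolerance of 0.02, 100% of values were whole multiples of a library's value of 1 read, so reads were recovered (13.0 to 52.5 M per library). Counting error is not small for low members (Dlk1 in eUB, 22 to 53 reads, and Dio3 in iSP, 13 to 17, and in eUB, 1 to 13). Positions and exon lengths come from GENCODE vM21 (GRCm38), which 22642 of 22761 genes matched, and sequences from RefSeq (GRCm38.p6).

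Values were tested as log2(value + 1) with limma 3.58.1 (lmFit and eBayes with trend, R 4.3.3) on the groups compared, over genes with at least 1 in at least 4 libraries, adjusting p by Benjamini-Hochberg and calling a gene under 0.05. The scripts were checked on simulated data. Alternatives were a pseudocount of 0.1, no filter, upper-quartile and quantile scaling, all 36 samples in a single fit, a replicate block, edgeR 4.0.16 on recovered reads, and each library left out. Removal of GC and length trends, and omission of the libraries that stood apart, were added after seeing the data. Where replicate numbers are shared, deviations of same-numbered samples correlated in all 4 pairs only for E12.5 NP and SP (r 0.543 to 0.700), so the numbers were taken to pair those samples, and the block changed no call there. Replicates are pools of separate mice or batches, as the study's methods describe them.

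The members and all gene lists (domain, chromosome 12 neighbours, Notch, thyroid hormone, imprint control, Rtl family, other imprinted genes and markers of UB, NP, SP, endothelial, macrophage, erythroid, neural, muscle and pluripotent cells) were chosen with earlier results of these data known. Genes named from a list are the up to 3 with the largest mean absolute difference among those called in all 3 comparisons of mESC-derived with E11.5 cells in the same direction, besides the members, the genes of the interval, and the 5 genes most correlated with Meg3 and with Dlk1. Some genes that this rule names are not reported here.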

Additional observations from a re-analysis of the deposited data

Results flagged for a closer look

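In 3 of 45 sets of 4 libraries, a library lay far from the other 3 by Dixon's test, and chance gives about 1 in 20. Dlk1 in E11.5 SP replicate 1 was 97.3 normalised CPM against 68.1 to 70.1 (gap over range 0.933). In E11.5 NP replicate 1, Meg3 was 18.3 against 5.88 to 7.69 (0.855) and Mirg 12.7 against 4.24 to 5.33 (0.871), and Rian was also highest there (51.8). The GC slope of that library was 0.0671 against -0.0778 to -0.0159 in the other 3, and its part in these values was not tested.

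The change from E11.5 to mESC-derived cells differed between cell types for 4 members by limma's interaction test. In the bud against nephron progenitors the difference of changes was -2.92 for Dlk1 (adjusted p = 2.6e-06), -1.22 for Rian (0.0026), -2.31 for Mirg (9e-05) and 1.46 for Dio3 (0.00097). In the bud against stromal progenitors it was -3.25 for Dlk1 (6.8e-08), -0.77 for Rian (0.038), -1.19 for Mirg (0.03) and 1.53 for Dio3 (0.00021). The eUB came from another mESC line than iNP and iSP, so cell type and line cannot be told apart. Dio3 in eUB had 1 to 13 reads in a library and passed the filter only through the mesenchymal libraries, and with a pseudocount of 0.1 its difference against nephron progenitors was 0.71 (adjusted p = 0.30).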

How the results depend on the processing

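Over 1615 values of a member under an alternative, 22 turned direction, and none of these had been called. They were Rian in eUB against E11.5 UB (-0.00017 with GC and length trends removed), Meg3 in eUB against E12.5 UB (0.079 with edgeR, 0.0065 with trends removed, 0.35 without the libraries that stood apart, and -0.53 to 0.32 over left-out libraries), Meg3 in iSP against E11.5 SP (0.05 with trends removed, -0.72 to 0.024 over left-out libraries), Mirg there (-0.50 to 0.0028), Dlk1 in iSP against E12.5 SP (-0.00082 with edgeR, -0.093 to 0.16 over left-out libraries), Mirg in E12.5 SP against E11.5 SP (-0.00035 with edgeR, -0.23 to 0.35) and Dio3 in the difference between iNP and iSP changes (-0.17 with quantile scaling, -0.16 with trends removed, -0.084 to 0.22).

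The number of members called moved for eUB against E12.5 UB (2) to 1 without a filter, with all 36 samples, with the replicate block or with edgeR, and for E12.5 SP against E11.5 SP (1) to 0 without a filter, with all 36 samples or with the replicate block. It moved to 3 with quantile scaling for iNP against E12.5 NP (5), to 1 with all 36 samples for E12.5 UB against E11.5 UB (2) and for iNP against iSP (3), to 4 without E12.5 UB replicate 1 for the first of these, and to 2 without eUB replicate 1 for the difference between eUB and iSP changes (4). The block moved E11.5 NP against SP from 3 to 5 (Dlk1 adjusted p = 0.049, Meg3 0.0078 by limma), where numbers did not pair the samples (r -0.348 to 0.509), and apart from the changes given above it moved no count by over 1.5 times. The causes were not tested.

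Over left-out libraries the count ran from 0 to 2 for eUB against E12.5 UB, 1 to 3 for iSP against E12.5 SP, 3 to 5 for iNP against E11.5 NP and E12.5 NP, 2 to 4 for E12.5 against E11.5 in UB and in NP, 0 to 1 in SP, 2 to 4 for E12.5 UB against mesenchyme, 0 to 1 for the iNP and iSP difference, and 2 to 4 for the eUB and iSP difference. Low reads limit Dio3 in iSP and eUB, where the pseudocount sets the size of its difference.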

Other observations

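Other imprinted genes were read in the same comparisons, in which 64.7% (iNP), 67.6% (iSP) and 60.5% (eUB) of all genes tested were called, so that the counts given here by themselves set no list apart. Of 21 paternally expressed genes outside the domain, 6 of 20 tested were higher and 5 lower in iNP than in E11.5 NP, 9 of 20 higher and 7 lower in iSP than in E11.5 SP, and 9 of 19 higher and 3 lower in eUB than in E11.5 UB, with median log2 differences of -0.17, 0.25 and 0.36. Peg13, a non-coding RNA, was lower in all 3 (-4.58, -5.58 and -0.59 in iNP, iSP and eUB), and Sgce (2.66, 0.92 and 2.35) and its neighbour Peg10 (1.90, 1.76 and 2.08), a retrotransposon-derived gene of placenta, were higher. Of 14 maternally expressed genes, 3 of 13 tested were higher and 4 lower in iNP, 4 of 12 higher and 4 lower in iSP, and 2 of 14 higher and 10 lower in eUB, with medians of -0.13, -0.02 and -1.04. The growth inhibitors Grb10 (-3.80, -3.61 and -9.09) and Phlda2 (-1.68, -2.42 and -3.81) were lower in all 3. H19, named after its values were seen, averaged 2941 normalised CPM in E11.5 NP and 25.1 in iNP, 3530 in E11.5 SP and 20.2 in iSP, and 2228 in E11.5 UB and 2004 in eUB. Meg3, the maternally expressed RNA of the Dlk1 domain, differed by 0.56 in iNP, -0.33 in iSP and -0.91 in eUB (limma adjusted p = 0.13, 0.57 and 0.12, the last 0.044 without eUB replicate 3 and 0.027 with GC and length trends removed).

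Of the retrotransposon-derived genes related to Rtl1, 4 of 6 tested were higher and 1 lower in iNP, 5 of 6 higher and 1 lower in iSP, and 2 of 7 higher and 2 lower in eUB, with medians of 1.0, 0.96 and 0.13. These counts too stand beside 64.7%, 67.6% and 60.5% of all genes called and are not a result about the list. Besides Peg10, Rtl8c was higher in all 3 (2.43, 1.52 and 1.2). Among cell type markers, Hoxb7 (1.80, 0.95 and 0.92) was higher in all 3, and Six2 (-2.08, -0.54 and -2.47) and the embryonic globin Hbb-y (-3.64, -7.48 and -3.99) lower.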
